A study of Mus musculus with 1 sample.

Results

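The cells described here are tumor cells of control MC38 tumors that were dividing and had little Col3a1. They were selected on their counts of unique molecular identifiers (UMIs), each of which stands for 1 captured transcript. A cell needed at least 200 genes, at least 5000 UMIs and at most 20% of its UMIs from mitochondrial genes. It was taken as a tumor cell with at least 3 UMIs of Rhox5 and Shisal2b together, fewer than 3 UMIs of Tyrobp and Fcer1g and fewer than 2 UMIs of Col1a2 per 10000 UMIs of the cell. Members also had fewer than 10 UMIs of Col3a1 and at least 2 UMIs of Top2a and Mki67 together per 10000. This gave 427 cells of 5307 in the library. The same limits without Top2a and Mki67 gave 955 Col3a1-low tumor cells, so that 528 other Col3a1-low tumor cells served for comparison.

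MC38 is a mouse colon adenocarcinoma cell line from a C57BL/6 animal. For this library, MC38 tumors grown under the skin of C57BL/6J mice were dissociated, cells of 5 tumors were mixed in equal proportions, and 1 library was made with the 10x Genomics Single Cell 3' v3.1 kit from polyadenylated RNA. The hosts of the study were immunocompetent female mice, purchased at 4 to 6 weeks of age. The label gives the genotype as WT without naming an shRNA, the study compared non-targeting (shNTC) with Atp6v0a1 knockdown tumors, and the knockdown tumors were not analysed here. With 1 library and no tag for the tumor of origin there are no replicates, so no test was possible, a cell is not a replicate, and every interval given here is an exact 95% interval that covers counting error only.

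A dividing cell copies its DNA in S phase and separates the copies in mitosis, after the gap phases G1 and G2. Entry into S phase follows when cyclin D and cyclin E kinases release E2F factors from the retinoblastoma protein. Genes for replication are then transcribed, and genes for mitosis follow later, many through promoters with CHR and CCAAT elements bound by complexes that contain B-Myb, FoxM1 and NF-Y. Top2a, a topoisomerase that untangles sister DNA, and Mki67, the Ki-67 protein that coats mitotic chromosomes, are made from S phase to mitosis and degraded or diluted afterwards, and are widely used to mark dividing tumor cells.

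The label of the library gives epithelial cells as the cell type. Of 16 epithelial genes, 8 had 0 UMIs in all Col3a1-low tumor cells, among them the keratins Krt18 and Krt19, and Tjp1, a tight junction scaffold also made by other cell types, was the 1 gene with enough UMIs to compare. Epcam, an epithelial adhesion molecule, had 4 UMIs in the members and 0 in the other cells. Krt8 had 2 and 3 UMIs, and Cdh1, the epithelial cadherin, had 3 and 4. The defining epithelial markers were thus at or near 0, and the members are called tumor cells by their rule. Vim, an intermediate filament of mesenchymal cells, had a median of 30 UMIs per 10000 in the members and was found in all 427 of them.

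Rhox5, a reproductive homeobox gene on the X chromosome (37804842 to 37808876, GRCm38, GENCODE M21), and Shisal2b, a membrane protein gene on chromosome 13 (104845283 to 104863893), chose the tumor cells. With each cell thinned to 5000 UMIs, Rhox5 was found in 94.8% of the members (92.3% to 96.7%) and in 17.6% of myeloid cells past the same Top2a and Mki67 limit (13% to 23.0%), which should lack it. Shisal2b was found in 58.8% and 5.02%. Tm4sf1, a tetraspanin-like surface protein gene on chromosome 3 (57285611 to 57301988) that the rule did not use, was found in 93.0% of the members (90.1% to 95.2%) and in 23.8% of those myeloid cells (18.6% to 29.8%). Without thinning the Tm4sf1 shares were 99.1% and 50.6%, at median depths of 65646 and 12483 UMIs. Myeloid cells here had at least 10 UMIs of Tyrobp and Fcer1g per 10000 and fewer than 3 UMIs of Rhox5 and Shisal2b. The contrast in Rhox5 and Shisal2b thus follows from the selection of both groups and is a description. Xist, the RNA of the inactive X chromosome in female cells, had no UMI in 393 of the 427 members. Thinned, it was found in 0.703% of the members and 89.1% of the dividing myeloid cells.

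The members stood apart from the rest of the Col3a1-low tumor cells in the values that chose them, which are a description and no finding. Top2a (chromosome 11, 98992943 to 99024189) was at 470.4 CPM (UMIs per 1000000 UMIs of the group) in the members and 49.6 CPM in the other cells. Mki67 (chromosome 7, 135689784 to 135716361) was at 118 and 21.3 CPM. Top2a and Mki67 together had a median of 5.0 UMIs per 10000 in the members, from 2.0 to 28.5, and a median of 0.458 in the other cells. There was no gap at the limit. The 5 members closest to it had 2.0, 2.005, 2.022, 2.029 and 2.034 per 10000, and the 5 other cells closest to it had 1.980, 1.984, 1.991, 1.994 and, just under the limit, 2.0. In all, 62 cells lay between 1.5 and 2 and 41 cells between 2 and 2.5, while 140 cells had no UMI of either gene. At the other limits of the rule, 53 members had 8 or more UMIs of Col3a1 per 10000, 2 members had 2 or more of Tyrobp and Fcer1g, and 11 members had 5 or fewer UMIs of Rhox5 and Shisal2b.

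**Figure D1:**
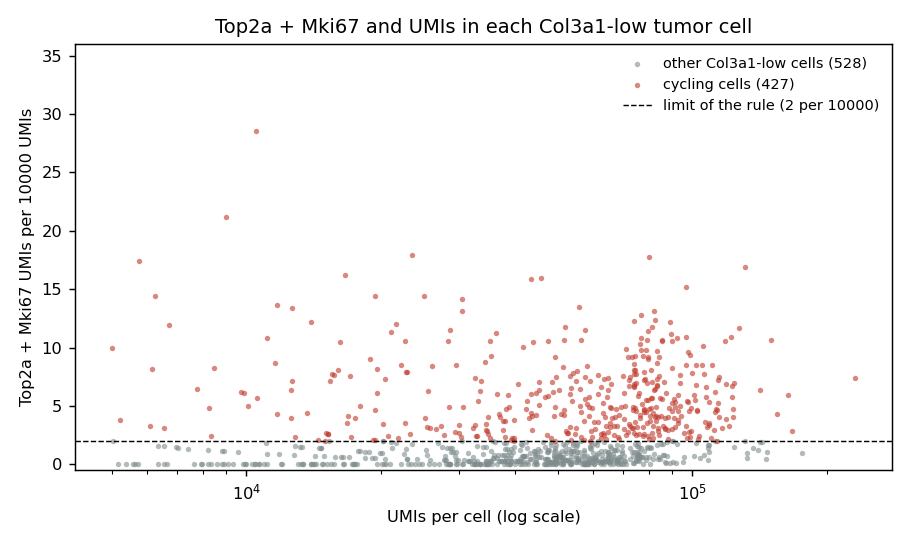
Top2a and Mki67 UMIs per 10000 UMIs (vertical axis) against UMIs per cell (horizontal axis, log scale) in each of the 955 Col3a1-low tumor cells. The 427 cycling cells (red) lie above the dashed limit of 2 per 10000 and the 528 other cells (grey) below it, without a gap between them, and 50 cycling cells had more than 100000 UMIs.

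Members were 44.7% of the Col3a1-low tumor cells (41.5% to 47.9%). The same limit was passed by 31.6% of the 730 Col3a1-high tumor cells (28.3% to 35.2%) and by 18.8% of the 1268 myeloid cells (16.7% to 21.1%). The order was the same after thinning each cell to 5000 UMIs, where 1 UMI of either gene suffices, at 53.8%, 44.0% and 32.5%. Over all tumor cells, the share stayed between 42.7% and 45.9% in the 3 ranges of Col3a1 below 10 per 10000. It was 37.8% from 10 to 20 and 25% above 20, and the thinned shares were 51.4%, 56.0%, 53.6%, 50.8% and 36.6% in the same order. The median depth was lowest, at 26842 UMIs, in the last range.

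The members were also the cells with more RNA captured. They had a median of 65646 UMIs and 6540.0 genes, against 47558 UMIs and 5556 genes in the other cells. Their share among Col3a1-low cells was 37.9%, 34.6% and 30.3% in cells of 5000 to 20000, 20000 to 40000 and 40000 to 60000 UMIs, 58.6% from 60000 to 100000 UMIs (53% to 64.1%) and 70.4% above 100000 UMIs (58.4% to 80.7%). After thinning, these shares were 48.6%, 45.0%, 45.7%, 62.1% and 77.5%. Cells that resembled simulated doublets made up 7.49% of the members (32 cells) and 3.03% of the other cells (16 cells), and they were kept. The part of doublets in the depth of the members was not tested. Mitochondrial UMIs had a median of 2.62% in the members and 2.03% in the other cells. Barcodes with less than 0.5% mitochondrial UMIs numbered 69 in the members and 141 in the other cells, and had 958 and 827 CPM of the nuclear RNA Malat1, against 2425 and 2579 CPM in the cells above that share. Members were 32.9% of the Col3a1-low cells below this mitochondrial share and 48.1% of those above it.

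Genes were compared by the ratio of their CPM in the members to that in the other Col3a1-low cells, for genes with at least 100 UMIs over both groups. Of 10300 genes, 651 were at least 1.5 times higher in the members (6.32% of the genes) and 99 at least 1.5 times lower (0.961%). The median log2 ratio of all genes was 0.07. Of the higher genes, 268 reached a ratio of 2 and 56 a ratio of 4, and the median ratio among them was 1.85. The cells were split by genes of the same counts, so the ratios describe the 2 groups and test nothing. Cell cycle and histone lists, chosen with earlier results known, held 213 of the higher genes (32.7%), and 438 (67.3%) lay outside them.

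**Figure D2:**
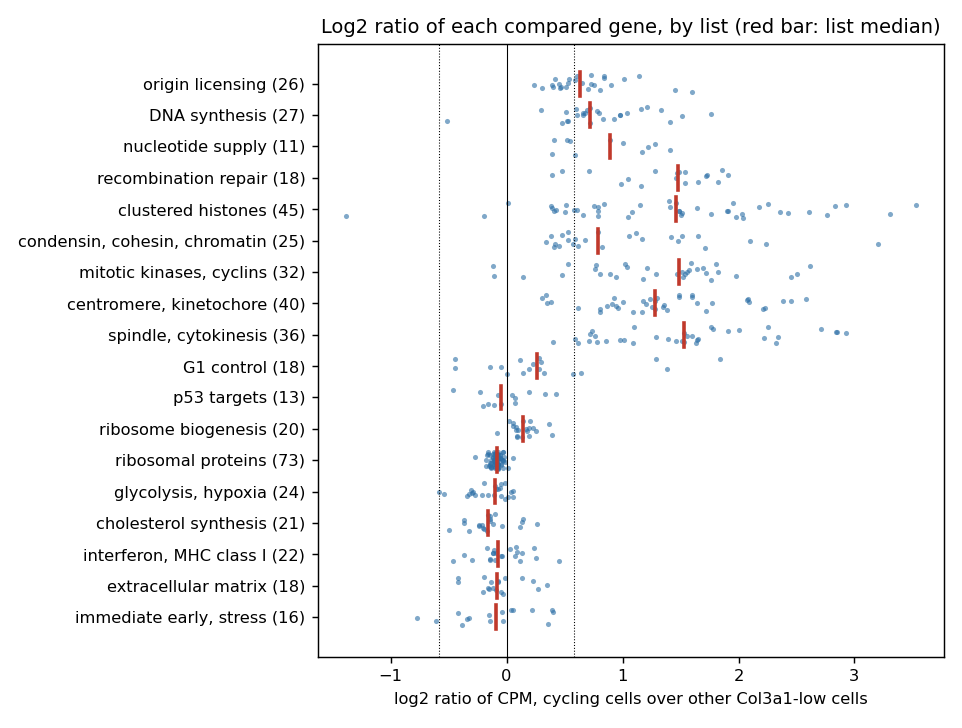
Log2 ratio of CPM in the cycling cells over the other Col3a1-low cells for each compared gene (blue points), by gene list, with the number of genes compared in parentheses, the list median as a red bar and dotted lines at a ratio of 1.5 in each direction. The 9 lists of replication, repair, histone and mitosis genes have medians between 0.63 and 1.53, and the 9 lists from G1 control to stress have medians between -0.16 and 0.26.

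Spindle and cytokinesis genes had the highest median of the lists. Of 36 genes compared, 35 were at least 1.5 times higher in the members and 0 lower, with a median log2 ratio of 1.53. Prc1, which bundles microtubules of the midzone, was at 138 CPM in the members and 18.1 CPM in the other cells, a ratio of 7.60 (6.89 to 8.39). Nusap1, a spindle microtubule binder, had a ratio of 7.2 (6.29 to 8.26), and Kif11, the kinesin that drives the poles apart, had 41.1 against 6.28 CPM and a ratio of 6.54 (5.53 to 7.77). Lower in the order were the kinesin Kif20a (1.64, 1.48 to 1.82) and the tubulin Tubb5 (1.69, 1.67 to 1.72). Arl6ip1 had too few UMIs to compare.

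The centromere and kinetochore list, which holds the proteins that tie chromosomes to microtubules, had 36 of 40 genes at least 1.5 times higher, 0 lower and a median of 1.28. Incenp, the scaffold of the chromosomal passenger complex, was at 124 and 20.8 CPM (5.98, 5.45 to 6.57), and Cenpf, a large kinetochore protein, at 166 and 30.3 CPM (5.47, 5.06 to 5.91). The passenger subunit Birc5, or survivin, was at 379.7 and 179 CPM (2.13, 2.05 to 2.20). The 4 genes below the fold were Cenpt, Zwint, Cenpa and Cenpw. Cenpa, the histone H3 variant of the centromere, was nearly as high in the other cells, with 155 against 122 CPM (1.27, 1.21 to 1.33).

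Among mitotic cyclins, kinases and regulators of the anaphase-promoting complex, 27 of 32 genes were at least 1.5 times higher and 0 lower, with a median of 1.49. The kinase Aurkb was at 97.6 and 15.9 CPM (6.14, 5.53 to 6.84), and Fbxo5, which inhibits the anaphase-promoting complex until mitosis, at 87.0 and 15.9 CPM (5.48, 4.93 to 6.10). Cdk1, the kinase that drives mitosis, was at 281 and 79.2 CPM (3.54, 3.37 to 3.72). Per cell, Cdk1 had quartiles of 1.61, 2.31 and 3.48 UMIs per 10000 in the members and a median of 0.405 in the other cells, so the members' lower quartile lay above the upper quartile of the others (1.03). Its partners differed among themselves. Ccna2, the cyclin of S phase and G2, had a ratio of 2.90 (2.68 to 3.14) and Ccnb1, a mitotic cyclin, 2.86 (2.64 to 3.10), while Ccnb2, the second B-type cyclin, was at 74.2 CPM in the members and 80.9 CPM in the other cells (0.918, 0.863 to 0.977). Pttg1, or securin, which holds sister chromatids together through separase, was likewise at 68.7 and 74.2 CPM. These small differences turned with the setting, since the log2 ratio of Ccnb2 was -0.12 and became 0.06 at a limit of 1 per 10000, and that of Pttg1 was -0.11 and became 0.10 among cells of 20000 to 40000 UMIs. Cdc20, which activates the anaphase-promoting complex, had a ratio of 1.45 (1.37 to 1.52), and Ube2s, the ubiquitin chain builder of that complex, 1.10 (1.08 to 1.13).

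The list of condensin, cohesin and chromatin proteins had 16 of 25 genes at least 1.5 times higher, 0 lower and a median of 0.79. Esco2, which acetylates cohesin in S phase, had the highest ratio (25.8 and 2.80 CPM, 9.18, 7.19 to 11.9). Cdca5, or sororin, which keeps cohesin on chromatin, followed (4.73, 3.90 to 5.77). Of the condensin subunits, Ncaph, Ncapg2, Smc2, Smc4, Ncapg, Ncapd3 and Ncapd2 had ratios from 4.28 down to 2.17, and Ncaph2 had 1.36. Of the cohesin subunits, Rad21 and Smc1a had 1.77 and 1.60, and Smc3, Stag1 and Stag2 had 1.49, 1.44 and 1.33. Hmgb2, a DNA-bending protein of dividing cells, was at 814 and 360.4 CPM. Without thinning it was found in all 427 members and in 93.0% of the other cells.

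Replication genes differed less than mitosis genes. Over the 4 lists of licensing, fork, nucleotide and repair genes, 59 of 82 were at least 1.5 times higher, 0 lower, and the median log2 ratio was 0.79. Over the 4 lists of mitosis genes it was 114 of 133 with a median of 1.29. Licensing and G1/S genes had 15 of 26 higher (median 0.63). Mcm10, which helps to fire loaded helicases, had a ratio of 2.73 (2.32 to 3.23), but the helicase subunits Mcm5 and Mcm6 had 1.45 (1.35 to 1.57) and 1.24 (1.16 to 1.33). The cyclins E, Ccne1 and Ccne2, had 1.36 (1.25 to 1.49) and 2.20 (1.83 to 2.66). E2f1, an activating E2F factor, had 1.18 (1.07 to 1.30) and E2f7, a repressor of the same family made later, 3.03 (2.33 to 3.99).

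At the fork, 21 of 27 genes were higher (median 0.72). Clspn, which relays the checkpoint signal from stalled forks, was at 62.6 and 18.5 CPM (3.39, 3.06 to 3.76). Pclaf, a partner of the sliding clamp, was at 246 and 92.4 CPM (2.67, 2.54 to 2.80), and Pcna, the clamp itself, at 202 and 128 CPM (1.58, 1.51 to 1.65). Ung, which removes uracil from DNA, was the 1 gene of the 82 below 1, at 11.1 and 15.8 CPM (0.701, 0.601 to 0.816). Its log2 ratio of -0.51 became 0.07 at a limit of 1 per 10000 and 0.19 among cells of 20000 to 40000 UMIs. Of 11 nucleotide genes, 7 were higher (median 0.89), led by the ribonucleotide reductase subunit Rrm2 (214 and 80.3 CPM, 2.66, 2.53 to 2.80) and thymidine kinase Tk1 (2.43, 2.28 to 2.58).

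Genes of homologous recombination and of the response to stalled replication had 16 of 18 higher, 0 lower, and a median of 1.48. Rad51ap1, an accessory protein of homologous recombination, was at 40.2 and 10.7 CPM (3.76, 3.29 to 4.31). Brca1, which acts at broken and stalled DNA, was at 18.6 and 5.61 CPM (3.32, 2.75 to 4.03).

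Clustered histone genes supply the histones of S phase. Most of their transcripts lack a poly(A) tail, so a kit that primes on poly(A) captures only part of them, and genes of a cluster are nearly identical in their coding sequence. Of 45 compared genes among 67, 35 were at least 1.5 times higher and 1 lower, with a median of 1.46. The linker histone Hist1h1b was at 189 and 19.1 CPM (9.90, 9.02 to 10.9) and was found in 83.1% of the members and 34.5% of the other cells without thinning. Hist1h2ap was at 175 and 32.6 CPM (5.39, 5.01 to 5.81). The lower gene was Hist1h2bc, at 45.4 and 118 CPM (0.384, 0.359 to 0.411), and the linker histone Hist1h1c was at 46.6 and 46.2 CPM, a log2 ratio of 0.01 that became -0.25 with equal weights per cell and -0.62 among cells of 20000 to 40000 UMIs. Of 7 histone variants, 1 was higher, H2afx, the variant phosphorylated at DNA breaks (218 and 82.1 CPM, 2.65, 2.52 to 2.79), and the median was 0.40.

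The promoters of the genes with the highest ratios are shown because mitosis and replication genes are known to carry different elements. For each of the 2 groups of lists, the 2 genes with the highest ratio were taken among those with at least 500 UMIs and a single RefSeq start. Windows run from 250 bases before to 50 after the start, on the gene's own strand, from RefSeq on GRCm38.p6. They are the windows of Nusap1 (chr2:119618048-119618347, plus strand), Kif11 (chr19:37376132-37376431, plus strand), Rad51ap1 (chr6:126939538-126939837, minus strand) and Clspn (chr4:126556730-126557029, plus strand). Capitals mark 3 kinds of letters on either strand. The cell cycle homology region, or CHR, was searched as TTTGAA. The box bound by NF-Y was searched as CCAAT. E2F letters were TTTGGCGC, TTTCCCGC or TTTCGCGC, and no marked letters overlap in these windows.
Nusap1: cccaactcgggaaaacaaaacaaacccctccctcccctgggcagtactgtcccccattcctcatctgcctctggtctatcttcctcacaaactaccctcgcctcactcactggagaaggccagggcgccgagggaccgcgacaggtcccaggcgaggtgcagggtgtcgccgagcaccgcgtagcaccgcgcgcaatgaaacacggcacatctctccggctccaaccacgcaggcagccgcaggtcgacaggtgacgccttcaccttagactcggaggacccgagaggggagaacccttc
Kif11: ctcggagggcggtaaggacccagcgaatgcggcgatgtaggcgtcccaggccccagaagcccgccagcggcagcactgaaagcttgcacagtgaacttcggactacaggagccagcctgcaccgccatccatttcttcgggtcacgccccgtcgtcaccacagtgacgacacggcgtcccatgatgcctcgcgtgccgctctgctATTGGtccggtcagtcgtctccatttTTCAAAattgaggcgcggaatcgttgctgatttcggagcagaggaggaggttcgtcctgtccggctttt
Rad51ap1: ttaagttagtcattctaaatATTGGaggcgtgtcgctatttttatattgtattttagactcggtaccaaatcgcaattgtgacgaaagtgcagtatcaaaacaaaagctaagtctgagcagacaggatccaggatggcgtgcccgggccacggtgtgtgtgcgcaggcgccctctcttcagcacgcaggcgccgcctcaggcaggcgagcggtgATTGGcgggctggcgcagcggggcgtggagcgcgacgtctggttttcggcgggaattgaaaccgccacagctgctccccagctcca
Clspn: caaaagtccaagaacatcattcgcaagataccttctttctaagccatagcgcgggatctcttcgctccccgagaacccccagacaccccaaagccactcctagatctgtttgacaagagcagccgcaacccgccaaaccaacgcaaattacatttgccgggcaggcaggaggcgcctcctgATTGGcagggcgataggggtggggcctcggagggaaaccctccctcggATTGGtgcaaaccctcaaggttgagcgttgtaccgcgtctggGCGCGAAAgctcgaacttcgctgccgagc
The Kif11 window holds the CHR letters 19 bases and the CCAAT letters 45 bases before the start, both on the opposite strand. In Clspn, the E2F letters begin 21 bases after the start and CCAAT letters lie 21 and 69 bases before it, and Rad51ap1 has CCAAT letters 36 and 230 bases before the start. Nusap1 has none of these letters in its window.

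Over all 32851 RefSeq windows, 17.9% held CHR letters, 37.4% CCAAT and 1.84% E2F letters. Among the windows of the compared genes the shares were 12.0%, 38.2% and 3.75%. The windows of the 651 genes higher in the members, 491 of which matched by symbol, held CHR in 26.6%, CCAAT in 50.8% and E2F letters in 12.0%. The lists of mitosis and replication genes differed in kind. CHR letters were in 52.0% of the 125 windows of 113 matched mitosis genes and in 13% of the 77 windows of 67 matched replication genes. E2F letters were in 10.4% and 31.2%, and CCAAT letters in 68.0% and 63.6%. Windows of 1 gene can overlap, and a match of letters does not show that a factor binds.

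Genes that govern G1 differed less than the replication and mitosis lists. Of 18 genes, 4 were at least 1.5 times higher, where 6.32% of all compared genes were, and 0 lower. Their median was 0.26, against 0.07 for all genes. Ccnd1, cyclin D1, was at 707 CPM in the members and 621 CPM in the other cells (1.14, 1.12 to 1.16), with quartiles of 3.92, 6.53 and 9.03 UMIs per 10000 in the members and 2.14, 5.13 and 7.98 in the other cells, so the groups overlapped over most of their range. Its kinase Cdk4 was at 386 and 349.9 CPM, a log2 ratio of 0.14 that became -0.03 among cells of 20000 to 40000 UMIs. Of the CDK inhibitors, Cdkn2d (p19) and Cdkn2c (p18) were among the higher genes, at 79.0 and 22.0 CPM (3.59, 3.27 to 3.94) and 16.9 and 6.48 CPM (2.61, 2.18 to 3.14), as were the retinoblastoma family members Rbl1 (2.44, 2.07 to 2.89) and Rb1 (1.56, 1.13 to 2.18). Cdkn1a, or p21, was at 39.9 and 32.5 CPM (1.23, 1.12 to 1.35), Cdkn2b (p15) at 59.0 and 79.8 CPM (0.739, 0.692 to 0.790) and Myc at 42.7 and 46.9 CPM. None of 13 p53 targets passed the fold in either direction (median -0.05). With 6.32% of all compared genes higher and 0.961% lower, 0 of 13 is near that share.

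Programs outside the cycle were close to the other cells. Of 20 ribosome biogenesis genes, 73 ribosomal protein genes, 24 genes of glycolysis and hypoxia, 21 of cholesterol synthesis and uptake, 22 of the interferon response and MHC class I, and 18 of matrix and mesenchymal state, 0 passed the fold in either direction, with medians of 0.14, -0.08, -0.10, -0.16, -0.07 and -0.08. Over all compared genes 6.32% were higher and 0.961% lower, so 0 among 18 to 24 genes is near that share. These zeros did not hold at every setting. At a limit of 1 per 10000, 4 of 24 glycolysis and hypoxia genes were lower (median -0.28), as were 113 of all 10300 genes. Among cells of 20000 to 40000 UMIs, 2 of 17 cholesterol genes were higher and 1 lower. Of 15 matrix genes there, 1 was higher and 2 lower. Of all 5249 genes compared at that depth, 565 were higher and 131 lower. Ribosomal proteins took 267139.7 CPM in the members and 283575 CPM in the other cells. Of the genes of the study's own pathway, Atp6v0a1, the proton pump subunit targeted by the knockdown, was at 6.20 and 7.23 CPM (0.858, 0.691 to 1.06), Rabgef1 at 7.53 and 7.94 CPM (0.948, 0.776 to 1.16) and Tgfb1 at 57.8 and 53.3 CPM (1.08, 1.01 to 1.17). The log2 ratio of Atp6v0a1, -0.22, became 0.23 among cells of 20000 to 40000 UMIs, and that of Tgfb1, 0.12, became -0.05 when cells were weighted equally. Of 16 immediate-early and heat shock genes, 0 were higher and 2 lower (median -0.09). These were Ier3 (32.4 and 55.3 CPM, 0.585, 0.537 to 0.637) and the phosphatase gene Dusp1 (29.2 and 44.6 CPM, 0.656, 0.598 to 0.719). Among tumor genes, Tm4sf1 was at 1302 and 1169.9 CPM (1.11, 1.10 to 1.13), with a log2 ratio of 0.15 that became -0.14 among cells of 20000 to 40000 UMIs. Shisal2b was at 297 and 203 CPM and Rhox5 at 651 and 727 CPM, and the rule used both.

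Markers of other cell types were low in both groups. The rule capped Tyrobp, Fcer1g and Col1a2 in both, and the myeloid cells were chosen by a minimum of Tyrobp and Fcer1g. Low macrophage and fibroblast markers, and the contrast with myeloid cells, thus follow in part from the selection. The 10 macrophage markers summed to 154 CPM in the members and 151 CPM in the other cells, against 34643 and 43285 CPM in dividing and other myeloid cells. The 6 fibroblast and pericyte markers summed to 214 and 203 CPM, the 5 endothelial markers to 15.9 and 19.6 CPM, the 6 T and NK markers to 1.55 and 4.86 CPM, the 4 granulocyte markers to 0.812 and 1.26 CPM, and the 4 B and red cell markers to 3.73 and 3.71 CPM. None of the 16 genes of these lists with enough UMIs passed the fold, against 6.32% of all compared genes higher and 0.961% lower. Ncr1 of NK cells, Ms4a1 of B cells and Cldn5 and Kdr of endothelial cells had 0 UMIs in both groups.

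The 20 highest ratios outside the lists, among genes with at least 500 UMIs, began with granzymes that came from 1 barcode. It held 1199 of the 1209 UMIs of Gzmf, 1058 of 1061 of Gzmg and 739 of 748 of Gzmd, and 98.9% of the members' UMIs of Gzmc, Gzmd, Gzme, Gzmf and Gzmg together. No other member had more than 1 UMI of any of these 5 genes. Granzymes are proteases of cytotoxic granules. Of other genes of cytotoxic lymphocytes, this barcode had 3 UMIs of Gzmb, 1 of the perforin gene Prf1 and 1 of Trac, and 0 of Nkg7, Cd3e, Cd8a and Ptprc. It had 112046 UMIs, 35 UMIs of Rhox5, 30 of the 67 Xist UMIs of the members and 2.32 UMIs of Tyrobp and Fcer1g per 10000, and it was not called a doublet. Without it, Gzmf was at 0.371 CPM in the members and 0.395 CPM in the other cells, and Xist at 1.37 and 1.34 CPM.

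The other 17 highest genes included several with roles in division. Fam83d, a spindle protein, was at 22.0 and 2.45 CPM (8.96, 6.89 to 11.8), and Cdca2, which brings a phosphatase to chromosomes at anaphase, at 22.8 and 3.63 CPM (6.29, 5.04 to 7.91). Neil3, a DNA glycosylase of S phase, had a ratio of 4.42 (3.64 to 5.40), and Eme1, a subunit of a nuclease for branched DNA, 4.13 (3.36 to 5.11). Sass6, of the centriole cartwheel, Gtse1, a microtubule protein of G2, Mis18a, which licenses centromeres, and the ubiquitin ligase gene Traip had ratios of 3.80, 3.74, 3.02 and 2.93. The remaining ones were Arhgap11a, Gm42047, G2e3, Iqgap3, Depdc1a, Ube2t, Troap, BC030867 and Mxd3, with ratios from 3.02 to 4.02.

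The lower side was smaller, both in number and in size. The median ratio of the 99 lower genes was 0.607, and 13 of them were at 0.5 or less. Crabp2, which carries retinoic acid, was at 15.6 and 34.3 CPM (0.456, 0.405 to 0.513), and Kdm5b, a histone H3 lysine demethylase, at 6.86 and 14.6 CPM (0.470, 0.392 to 0.562). The imprinted noncoding RNA H19 was at 27.2 and 55.2 CPM (0.492, 0.450 to 0.539), and Cited2, a transcriptional cofactor, at 86.0 and 161 CPM (0.533, 0.507 to 0.561). Ptgs2, the inducible cyclooxygenase, was at 9.41 and 14.9 CPM (0.634, 0.538 to 0.745), and the noncoding RNA AW112010 at 212 and 324 CPM (0.653, 0.632 to 0.676). The remaining genes of the 20 lowest were Cdc42ep2, Tmem140, Gm7967, Fam43a, Hoxd3os1, Snhg4, Mxra8, Ecscr, Rnase4, Snhg18, Tmem150a, 3110039M20Rik, Slc9a3r2 and A130051J06Rik, with ratios from 0.567 to 0.692. The 20 are the lowest outside the lists with at least 500 UMIs. Those with a ratio above 0.667 did not pass the fold and are not among the 99.

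To see how the members varied among themselves, each cell was thinned to 5000 UMIs and the UMIs of 64 replication genes and 103 mitosis genes were summed. The members had a median of 21 replication UMIs (2.0 to 57.0, quartiles 14.5 and 28) and 35.0 mitosis UMIs (6.00 to 110.0, quartiles 24.0 and 50). The other cells had medians of 10.0 and 14.0. Across the 427 members the 2 sums ran in opposite directions (Pearson's r -0.40, Spearman's rho -0.42), and across the 528 other cells they ran together (0.26 and 0.44). These are descriptions over cells of 1 library that share its depth and free RNA, and the cause of the 2 directions was not tested.

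**Figure D3:**
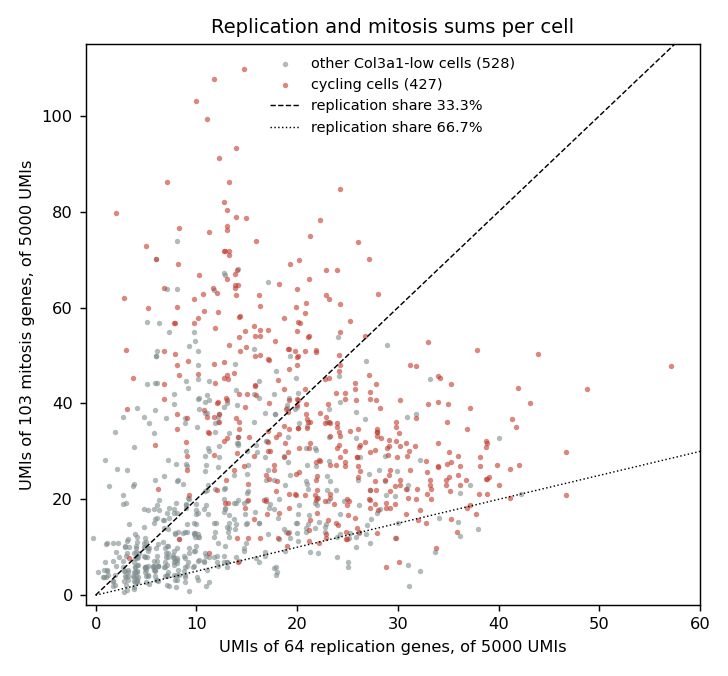
UMIs of 103 mitosis genes (vertical axis) against UMIs of 64 replication genes (horizontal axis) among 5000 UMIs of each cell, for 427 cycling cells (red) and 528 other Col3a1-low cells (grey), with lines at replication shares of 33.3% (dashed) and 66.7% (dotted). Cycling cells spread from many mitosis and few replication UMIs to the reverse, while most other cells lie near the origin.

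The 2 groups overlapped. Of the other cells, 89 (16.9%) reached the members' median of replication UMIs and 87 (16.5%) that of mitosis UMIs, although Top2a and Mki67 were below the limit. Of the members, 33 (7.73%) lay below the other cells' median of replication UMIs and 24 (5.62%) below that of mitosis UMIs. Taking both sums together, 112 of the other cells (21.2%, 17.8% to 25%) reached the members' lower quartile of 48.0 UMIs. These cells had a median of 1.23 UMIs of Top2a and Mki67 per 10000. Of the 112, 63 (56.2%) had under 33.3% of both sums from replication genes, 44 (39.3%) between 33.3% and 66.7%, and 5 (4.46%) more.

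The members were cut into 3 ranges by the same share, whose median was 39.2% (2.44% to 82.9%). The mitosis-heavy range below 33.3% held 167 members (39.1%, 34.5% to 43.9%), the mixed range 242 (56.7%, 51.8% to 61.4%) and the replication-heavy range above 66.7% held 18 (4.22%, 2.52% to 6.58%). They are ranges and not cell types, with 63 members within 0.05 of the lower cut and 32 within 0.05 of the upper one. Without thinning, the replication-heavy share was 1.64%, below its interval given here. The 3 ranges had close median depths, at 64316, 66556 and 60663 UMIs. Median Top2a and Mki67 were 6.35, 4.85 and 3.65 per 10000 in that order. Cells called doublets numbered 14, 18 and 0.

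Levels of the genes that made the sums follow from the cut and are given as a description. Ccnb1 was at 174 CPM in the mitosis-heavy, 46.0 in the mixed and 5.18 in the replication-heavy range, against 32.6 CPM in the cells that were not members. Cenpf was at 319.6, 74.0 and 16.4 CPM and Plk1, a kinase of mitotic entry, at 117, 33.1 and 14.7 CPM. In the opposite direction, Cdc6, which loads helicases at origins, was at 5.87, 34 and 73.3 CPM, Ccne1 at 17.6, 56.5 and 102 CPM, and Ung at 1.64, 15.8 and 31.9 CPM. Ung in the replication-heavy range was thus above the 15.8 CPM of the other cells, and in the mitosis-heavy range far below it. Cenpa was at 277, 84.6 and 7.76 CPM, Cdc20 at 255, 57.4 and 15.5 CPM and Ccnb2 at 124, 45.1 and 16.4 CPM. The other cells, at 122, 90.8 and 80.9 CPM, were above the mixed and replication-heavy members in all 3 of these genes, which in a dividing cell peak at mitosis. Replication-heavy values rest on 18 cells and few UMIs. These were 6 for Ccnb1, 9 for Cenpa, 17 for Plk1, 18 for Cdc20 and 19 each for Cenpf and Ccnb2. Ung had 37, Cdc6 85 and Ccne1 118.

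Genes outside the sums followed the ranges in both directions. Top2a was at 539, 433 and 349 CPM and Mki67 at 143, 105 and 58.7 CPM. H2afx was at 339.7, 147 and 71.6 CPM and Cdkn2d at 120.2, 55.4 and 27.6 CPM, both highest in the mitosis-heavy range. The repair list summed to 202, 347 and 425 CPM, with Brca1 at 11, 23.0 and 28.5 CPM and Rad51ap1 at 26.4, 47.4 and 68.1 CPM. Clustered histones were highest in the mixed range, at 1604, 1926 and 1329 CPM against 735 CPM in the other cells. Hist1h1b had 106, 246 and 173 CPM. Shisal2b was at 349, 271 and 169.9 CPM over the ranges, whereas Rhox5 (639, 658 and 664 CPM) and Tm4sf1 (1286, 1308 and 1354 CPM) were nearly level. Cdkn1a was lowest in the mitosis-heavy range, at 24.0, 50.2 and 44.0 CPM.

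**Figure D4:**
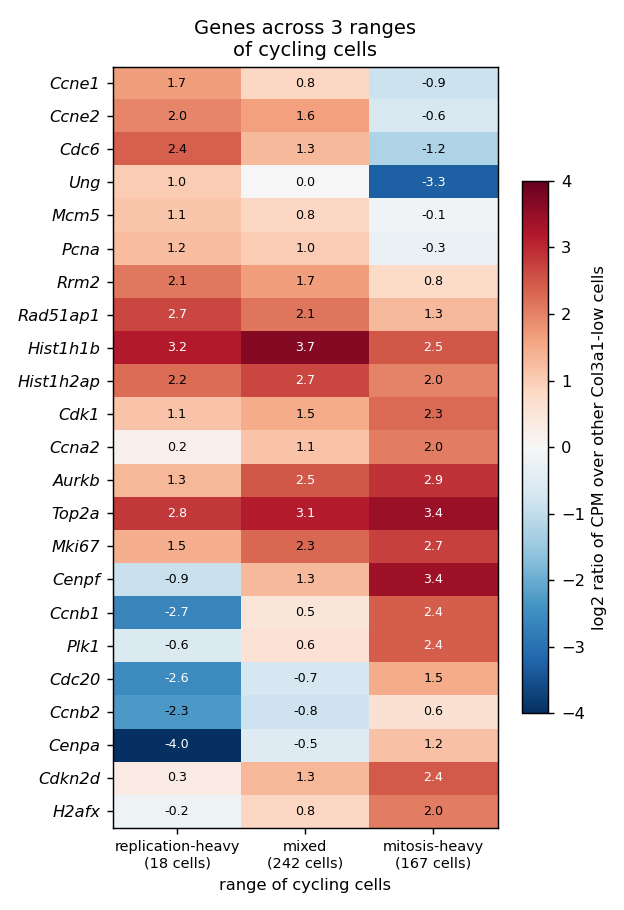
Log2 ratio of CPM in each of the 3 ranges of cycling cells over the 528 other Col3a1-low cells (colour and printed value), for 23 genes in rows. The replication-heavy column rests on 18 cells and for some genes on few UMIs, such as 6 of Ccnb1. G1/S genes such as Cdc6 and Ccne1 are above the other cells in the replication-heavy range and below them in the mitosis-heavy range, Cenpa, Cdc20 and Ccnb2 the reverse, and Top2a and Mki67 are above in all 3.

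The genes that varied most between members lay outside the cell cycle lists. Among 1373 genes with a mean of at least 0.5 UMIs of 5000, the median variance-to-mean ratio was 1.21. The highest, chosen after their values were seen, included those of the nuclear RNA Malat1 (166), Gm42418 (56.0), the metallothionein Mt1 (18.3), the secreted protein Spp1 (16.4), the interferon-induced chemokine Cxcl10 (14.7) and, after the calcium-binding protein S100a6 (13.7), the chemokine Ccl5 (13.4). Cxcl10 had a median of 2.0 UMIs of 5000 in the members, from 0 in 105 of them to 76 in 1. Their correlations with the 2 sums lay between -0.101 and 0.0573 for these 7 genes. In the other cells the ratios were 70.5, 28.6, 8.64, 21.2, 16.5, 16.3 and 14.8 in the same order.

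The same limit was applied to Col3a1-high tumor cells and to myeloid cells of the library. Of 9636 genes compared, 928 (9.63%) were at least 1.5 times higher in the 231 Col3a1-high tumor cells past the limit, and of 8365 genes, 1050 (12.6%) in the 239 myeloid cells past it. The medians of all genes were 0.06 and 0.10. Of the 548 genes that were higher in the members and compared in both tumor groups, 472 were also higher in the Col3a1-high cells, which is 86.1% of the former and 51% of the 926 higher genes there. With myeloid cells, 336 genes were shared, 84.4% of 398 in the members and 33.3% of 1008 in myeloid cells.

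The ratios of the members were the smallest of the 3 populations in the lists of replication and mitosis genes. The mitosis lists had medians of 1.29 in the members, 2.36 in Col3a1-high tumor cells and 3.09 in myeloid cells, and the replication and repair lists 0.79, 1.51 and 1.58. Summed levels were closer to each other past the limit than below it. The mitosis lists summed to 15363 CPM in the members, 15944 CPM in dividing Col3a1-high cells and 17417 CPM in dividing myeloid cells, but to 8295, 5556 and 3398 CPM in the cells below the limit. For the replication and repair lists the sums were 4806, 5027 and 4591 CPM past the limit and 2838, 1891 and 1444 CPM below it. Ccnb2, with a ratio of 0.918 among Col3a1-low cells, had ratios of 1.88 and 9.72 in the other 2 populations. Glycolysis and hypoxia genes, with 0 of 24 lower in the members, had 9 of 23 lower in Col3a1-high cells (median -0.49) and 6 of 24 lower in myeloid cells (median -0.30). The share of all genes that were lower was not counted in those 2 populations, so these counts cannot be compared with it. The 3 populations differ in depth, and whether the differences hold in other tumors cannot be tested with 1 library.

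**Figure D5:**
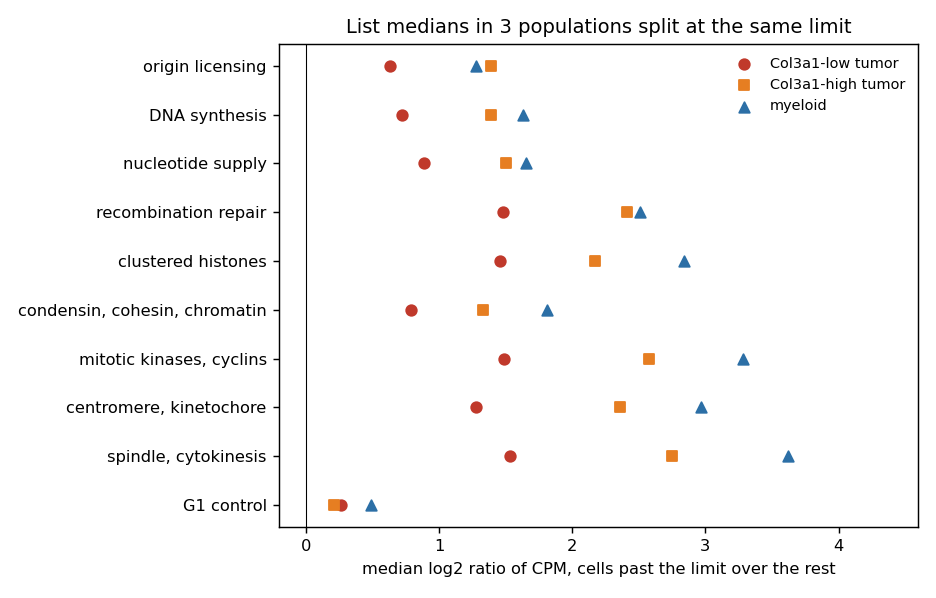
Median log2 ratio of CPM in cells past the Top2a and Mki67 limit over the rest, for 10 gene lists in Col3a1-low tumor cells (circles), Col3a1-high tumor cells (squares) and myeloid cells (triangles). Col3a1-low tumor cells have the lowest median in the 9 lists of replication, repair, histone and mitosis genes, such as 1.53 against 2.75 and 3.62 for spindle genes.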

How the data were processed

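The deposited file of the library holds UMI counts per gene and cell as the authors obtained them from 10x Genomics reads, already limited to called cells. The header of the file names Cell Ranger 5.0.1 where the study's methods name an earlier release, and the build is GRCm38 (mm10). The library held 5307 cells and 106631000 UMIs, of which the members held 27098556. The limits on genes (200) and on mitochondrial UMIs (20%) kept 4640 cells, the minimum of 5000 UMIs kept 3234, and 1685 were tumor cells, 955 of them Col3a1-low. The members and the gene lists were chosen with earlier results of these data known.

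Counts were summed per group and divided by the group's UMIs, per 1000000. Ratios carry exact conditional binomial intervals and shares carry Clopper-Pearson intervals, at 95%. Genes needed 100 UMIs over both groups, and a fold of 1.5 in either direction was counted. Named genes were members of the lists and the 20 highest and 20 lowest other genes with at least 500 UMIs. Genes singled out for their variation or as exceptions were chosen after their values were seen. Cells were thinned at random to 5000 UMIs for shares and sums. Doublets were scored against simulated ones at 0.8% per 1000 cells, which called 197 cells, and were kept. Tests on simulated data changed 200 of 10223 genes, with the same expression profile for all cells of a group. The intervals held the true ratio for 95.0% of the changed genes, and 0.249% of unchanged genes passed the fold. Such data hold no variation between cells beyond sampling, so these values do not cover it. The alternatives were other limits on mitochondrial UMIs, depth, doublets, Top2a and Mki67 and Col3a1, equal weights per cell, a depth window, other gene minimums and a fold of 2. Scripts ran in Python 3.11.15 with pandas 2.3.3 for tables, scipy 1.17.1 for intervals, numpy 2.4.6 for thinning, matplotlib 3.10.9 for figures and, for doublet scores, scikit-learn 1.9.0.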

Additional observations from a re-analysis of the deposited data

How the results depend on the processing

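With 1 library, these settings show how values move within it and not between tumors. The share of members, 44.7%, was 29.7% at a limit of 4 and 60.5% at a limit of 1 per 10000, 53.8% with thinned cells and 48.1% among cells with at least 0.5% mitochondrial UMIs. The last setting was chosen after seeing the data, as were leaving out the granzyme barcode and cells above 100000 UMIs. The 651 higher genes of 10300 became 982 with equal weights per cell and 268 at a fold of 2, of the same 10300 genes. A gene minimum of 500 UMIs gave 376 of 7016, and a minimum of 20 UMIs gave 945 of 12279. The 99 lower genes became 164, 13, 14 and 400 under these 4 settings in that order. Among the 66 members and 125 other cells of 20000 to 40000 UMIs, 5249 genes could be compared, and fewer genes of each list. There, 72 mitosis genes, 39 replication genes and 10 histone genes were higher, against 114 of 133, 59 of 82 and 35 of 45. The 10 histone genes were of 14 compared. The mitosis genes were 20 of 25 (kinases, cyclins), 19 of 22 (kinetochore), 21 of 24 (spindle) and 12 of 18 (condensin). The replication genes were 15 of 18 (licensing), 16 of 23 (fork), 6 of 9 (nucleotides) and 2 of 2 (repair). A minimum of 500 UMIs left 20 higher histone genes of 25 compared, and a fold of 2 left 29 replication genes. The replication-heavy share, 4.22%, was 1.64% without thinning. Directions turned for Ccnb2 (log2 ratio 0.06) and Ung (0.07) at a limit of 1 per 10000, for Cdk4 (-0.03), Pttg1 (0.10), Tm4sf1 (-0.14), Ung (0.19), Atp6v0a1 (0.23) and Gzmd (-0.05) at 20000 to 40000 UMIs, and for Tgfb1 (-0.05) with equal weights. Gzmd, Gzmf and Gzmg turned to -6.09, -6.04 and -8.18 at a limit of 4, which puts the granzyme barcode among the other cells. Without that barcode, Gzmf and Gzmg were both at -0.09. The cause of the other changes was not tested. The median log2 ratio of all genes was 0.12 at a limit of 4 and with equal weights, against 0.07. The log2 ratios of Col3a1 (-0.03) and Hist1h1c (0.01), near 0, turned under 5 and 7 settings. Of the values of single genes, 254 moved beyond their interval without turning. Some lists outside the cycle with no gene past the fold had 1 to 4 lower genes, or 1 or 2 higher ones, under some settings, the p53 targets 1 lower under 3 of them. The numbers of all genes compared and past the fold also changed with the setting. No paired analysis was possible because there is 1 library.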
